A study of Mus musculus with 15 samples.

Results

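Scavenger receptors bind oxidized lipoproteins, microbial surfaces and spent plasma proteins and carry them to the lysosome. Efferocytosis, the clearance of dying cells, uses receptors that bind phosphatidylserine exposed on the dying cell. Timd4 binds this lipid directly, whereas Axl and Mertk bind it through bridging ligands such as Gas6. In bone marrow these receptors are best known from macrophages, and Axl is also made by stromal cells.

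The receptors described here were taken by name: the endolysosomal glycoprotein Cd68, the class B scavenger receptor Cd36, the class A receptors Msr1 and Marco, the mannose receptor Mrc1, the hemoglobin-haptoglobin receptor Cd163, the multiligand receptor Stab1, and the dying-cell receptors Timd4, Axl and Mertk. All 10 symbols were present among the 56832 genes of the count table. The rule uses the symbols only.

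The libraries were bulk RNA-sequencing of mesenchymal stromal cells (MSCs) cultured from the long-bone marrow of mice that were 16 weeks old. The mice were C57BL/6J animals, either wild type (TauT+/+) or with a global knockout of the taurine transporter gene Slc6a6 (TauT-/-). There were 4 male and 3 female TauT+/+ libraries, and 4 male and 4 female TauT-/- libraries, by their labels. Marrow cells had grown in MEM α with 15% serum, MSCs were then enriched by removing cells positive for CD45, Ter119 or CD31, and the labels name no treatment. The transporter was lost in every cell of the animal, so a difference between the cultures cannot be assigned to MSCs alone.

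Library totals ran from 69764291 to 101575071 counts under the male label and from 12761107 to 20781070 under the female label, so depth and sex label could not be told apart. The targeted gene Slc6a6 was at 592 to 2591 counts per 1000000 counts (CPM) in TauT+/+ and 401 to 1521 in TauT-/-, and the genotypes overlapped. The files do not say which part of the gene was removed, so this level does not check the labels. TauT+/+ male 1, TauT-/- male 1 and TauT+/+ female 3 had levels of Xist and Ddx3y against their sex label. TauT-/- male 1 with TauT-/- female 1, and TauT+/+ male 1 with TauT+/+ female 1, were the most alike of all pairs. The spread of the log2 count ratio over genes was 0.112 and 0.122 in these pairs, against 0.297 in the next. It was measured as the median absolute deviation from the median ratio, scaled to match an SD. Their chi-square per degree of freedom of 8.77 and 10.6 is above sampling noise, which would give about 1, and the next pair was at 81.6. A value above sampling noise does not show that 2 libraries came from separate animals, and this was not tested. The 15 libraries were counted separately. Values with 1 library of each pair left out, and without the 3 libraries against their sex label, are given for receptors below.

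The cultures held transcripts of both stroma and macrophages. The stromal markers Col1a1 and Pdgfrb were present in every library, with Col1a1 at 2323 CPM or more and Pdgfrb at 256 CPM or more. Ptprc, which encodes the CD45 used in the depletion, was at 27.9 to 179 CPM in TauT+/+ and at 114 to 369.6 CPM in TauT-/-. The macrophage genes Csf1r, Adgre1 and Lyz2 were likewise above 0 in every library. In bulk samples, more cells of a type and more RNA per cell cannot be told apart.

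Cd68, Mrc1 and Marco are shown first by sequence, because Cd68 carried the only call among the receptors, Marco had the widest range, and Mrc1 held 2 matches to the Ets-type motif described here. The sequences are the 250 bases before the RefSeq start of each gene on GRCm38.p6, and 9 of the 10 receptors had an entry. Capitals mark TGAGTCA, the AP-1 motif, in Cd68 and GAGGAAG, an Ets-type motif, in Marco and Mrc1. Both motifs were searched on both strands, and in Mrc1 the match reads CTTCCTC because it lies on the other strand.
Cd68 (chr11:69666171-69666420, minus strand): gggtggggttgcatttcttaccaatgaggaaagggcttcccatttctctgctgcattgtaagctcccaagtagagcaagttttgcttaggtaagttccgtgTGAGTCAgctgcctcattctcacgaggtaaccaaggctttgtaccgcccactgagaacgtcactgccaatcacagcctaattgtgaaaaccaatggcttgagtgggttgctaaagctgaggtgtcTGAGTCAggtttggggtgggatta
Marco (chr1:120505025-120505274, minus strand): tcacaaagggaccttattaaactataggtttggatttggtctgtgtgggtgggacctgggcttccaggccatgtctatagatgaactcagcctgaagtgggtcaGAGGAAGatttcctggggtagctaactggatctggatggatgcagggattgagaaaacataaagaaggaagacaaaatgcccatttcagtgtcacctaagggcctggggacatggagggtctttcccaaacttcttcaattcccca
Mrc1 (chr2:14229164-14229413, plus strand): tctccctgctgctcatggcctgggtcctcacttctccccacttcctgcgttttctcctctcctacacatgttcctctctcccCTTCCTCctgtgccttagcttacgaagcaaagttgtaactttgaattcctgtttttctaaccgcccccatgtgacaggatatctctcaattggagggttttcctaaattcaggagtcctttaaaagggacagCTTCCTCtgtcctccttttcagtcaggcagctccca
TGAGTCA began 149 and 24 bases before the Cd68 start, and it was found in 1 of the 9 receptor windows against 4.46% of 32851 windows of this length. GAGGAAG was found in 3 of the 9, Mrc1, Marco and Axl, against 10.6% of all windows. A match is a description of the letters and says nothing of binding in these cells.

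Cd68 was the receptor with a genotype difference past the threshold. It marks the endolysosomes of macrophages and other phagocytes, and the gene lies on chromosome 11 at 69555037-69557067 (GRCm39, minus strand). In TauT+/+ it was at 236, 36.3, 155 and 102 CPM in the male libraries and at 259, 247 and 230.4 CPM in the female libraries. In TauT-/- it was at 309, 359.6, 313 and 457 CPM in the male libraries and at 331, 584, 755 and 1087 CPM in the female libraries. The genotypes did not overlap, since all TauT-/- values exceeded all TauT+/+ values, which held for 1 of the 9 receptors tested and for 0.692% of the 17204 genes tested. The fold change was 2.76 with a 95% interval of 1.70 to 4.47, or a log2 fold change of 1.46 ± 0.33 (SE, n = 7 and 8, adjusted p = 0.0445 by the edgeR quasi-likelihood test).

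With all 15 libraries the difference was of similar size under each sex label, although neither passed the threshold. Each near-identical pair has 1 library under each label, so the labels may not give separate evidence. The log2 fold change of Cd68 was 1.47 ± 0.46 (SE) in the 4 and 4 male libraries (edgeR, adjusted p = 0.560) and 1.54 ± 0.51 in the 3 and 4 female libraries (edgeR, adjusted p = 0.252). Without the 3 libraries against their sex label it was 1.98 ± 0.52 (SE) for the male and 1.51 ± 0.58 for the female label. The female minus male difference was then -0.47 ± 0.73 (SE). Within a sex label no receptor was called by edgeR (0 of 9) or by DESeq2 (0 of 8 given a value), and Cd68 alone had an unadjusted p under 0.05 under each label by edgeR. By edgeR 0% of the 18263 genes were called under either label, and by DESeq2 0.466% of genes given an adjusted p under the male label and 2.52% under the female label. The share of genes with an unadjusted p under 0.05 was 8.70% under the male label and 14.8% under the female label. With all 15 libraries the genotype effect on Cd68 differed between the labels by 0.07 ± 0.66 (SE) on the log2 scale. No receptor passed the edgeR test of that difference (0 called, 0 with an unadjusted p under 0.05, against 0% and 1.62% of genes). DESeq2 called no receptor for that difference either, and 0.00608% of genes.

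The call on Cd68 depended on which libraries were used, while its direction did not. The adjusted p also depends on all other genes of a fit. With all 15 libraries the unadjusted p of Cd68 by edgeR was 0.000464. Keeping only the female-labelled library of each near-identical pair gave a log2 fold change of 1.70 (edgeR, unadjusted p = 0.000258, adjusted p = 0.0718). That fit called 2 of 14360 genes. Keeping only the male-labelled library gave 1.60 (edgeR, unadjusted p = 0.000512, adjusted p = 0.0974), with 7 of 17552 genes called. Without the 3 libraries whose Xist and Ddx3y levels went against the label it was 1.75 (edgeR, unadjusted p = 0.000623, adjusted p = 0.152), with 0 of 16211 genes called. Leaving out each library in turn kept the call in 3 of 15 fits, those without TauT+/+ male 1, TauT+/+ male 3 or TauT-/- female 1, and the log2 fold change stayed between 1.31 and 1.69. In the 12 others, each of the remaining libraries left out, the adjusted p was between 0.0527 and 0.107. Without TauT+/+ male 2 the unadjusted p of Cd68 was 0.000188 by edgeR, and 12 genes were called higher and 12 lower of 16001. Without TauT+/+ female 2 it was 0.00113, and 8 genes were called higher and 4 lower of 17494.

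**Figure D1:**
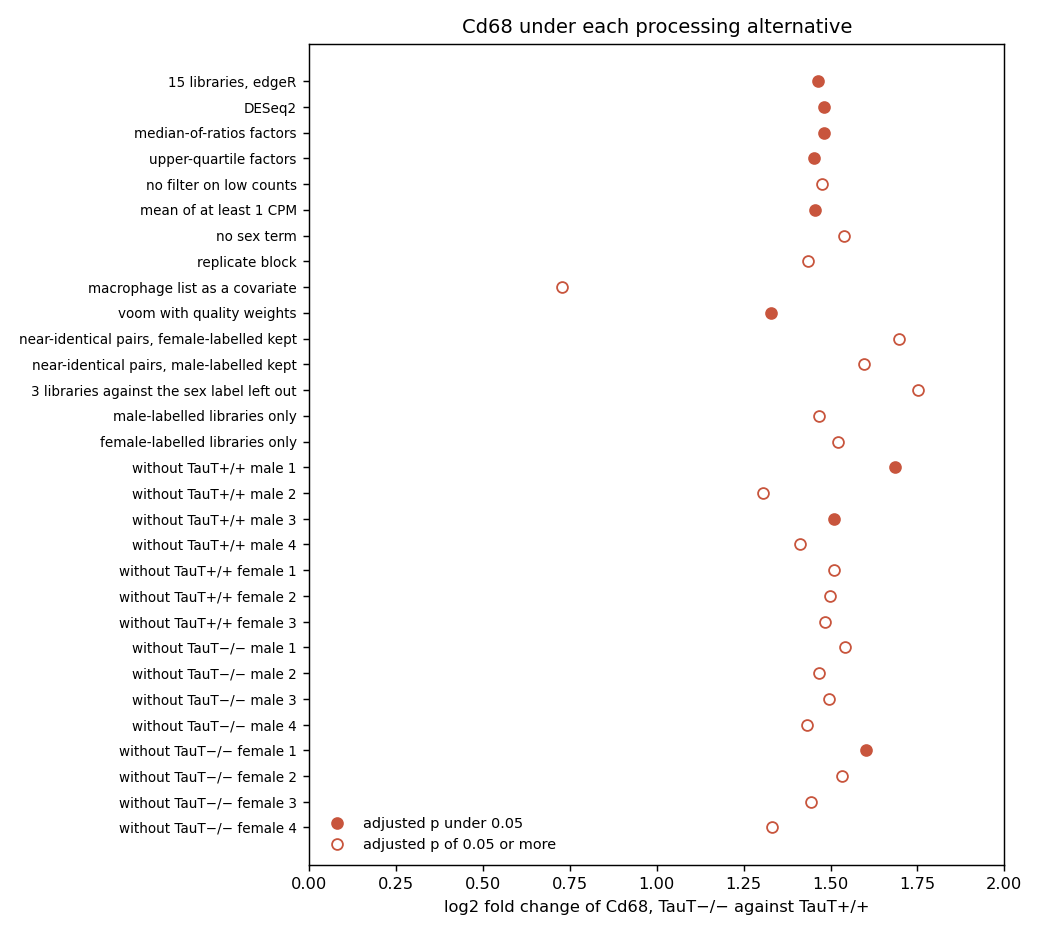
The log2 fold change of Cd68, TauT-/- against TauT+/+, on the horizontal axis under the fit to all 15 libraries and 29 alternatives, with filled points for an adjusted p under 0.05. All points lie above 0, from 0.73 to 1.75, and 8 of the 29 alternatives are filled.

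The plot of Cd68 under each alternative separates the size of the difference from its call. The fits gave a log2 fold change between 1.31 and 1.75, except the one with the macrophage list as a covariate at 0.73.

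Markers of macrophages moved with Cd68. The summed CPM of 20 pan-macrophage genes, from which the receptors were left out, was 1617 to 11192 in TauT+/+ and 7469 to 28342 in TauT-/-. Of these 20 genes, 19 had a fold change above 0, with a median log2 fold change of 0.91, and 16 had an unadjusted p under 0.05, against 23.6% of all genes. edgeR called 1 of them higher, where 0.546% of all genes were called higher, the lysosomal protease Ctss (2.07 ± 0.47, SE, adjusted p = 0.0467). DESeq2 called 9 of the 20 higher, against 5.28% of genes given an adjusted p. The Ctss call was kept in 2 of 15 fits that each left out 1 library, those without TauT+/+ male 3 or TauT-/- female 1 (edgeR, adjusted p of 0.0201 to 0.115 over the 15). With the mean log2 CPM of these 20 genes in the model, the log2 fold change of Cd68 was 0.73 ± 0.18 (SE). The call was lost (edgeR, unadjusted p = 0.00105, adjusted p = 0.190), in a fit that called 2 of 17204 genes higher and 0 lower. In that fit 1980 genes had an unadjusted p under 0.05. The part of these cells in the Cd68 difference was not tested. Ptprc had a log2 fold change of 0.91 (edgeR, adjusted p = 0.129), Csf1r of 0.88 (0.170), Adgre1 of 0.98 (0.387) and Lyz2 of 0.97 (0.167), none past the threshold.

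The 12 stromal markers summed to 34626 to 51524 CPM in TauT+/+ and 7199 to 47666 CPM in TauT-/-. Of them, 9 had a fold change below 0, with a median log2 fold change of -0.63 and 0 called by edgeR. An unadjusted p under 0.05 was found for 3, with Pdgfra (-1.45) and Pdgfrb (-0.59) lower and Cd44 (0.77) higher. DESeq2 called 1 lower, Pdgfra. Of 10 inflammatory macrophage or monocyte genes tested, 8 were above 0, with a median of 0.54 and 0 called by edgeR (2 with an unadjusted p under 0.05, 1 called higher by DESeq2). The 7 osteoclast genes tested had a median of 0.42 and none was called by edgeR or DESeq2 (0 with an unadjusted p under 0.05). Neutrophil markers summed to at most 53.3 CPM and lymphocyte markers to at most 0.276 CPM in any library, with Cd3e and Cd3g at 0 throughout. Over all genes, 23.6% had an unadjusted p under 0.05 by edgeR. DESeq2 called 5.28% higher and 6.31% lower of the genes given an adjusted p. The part of these cell types in the receptor levels was not tested.

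**Figure D2:**
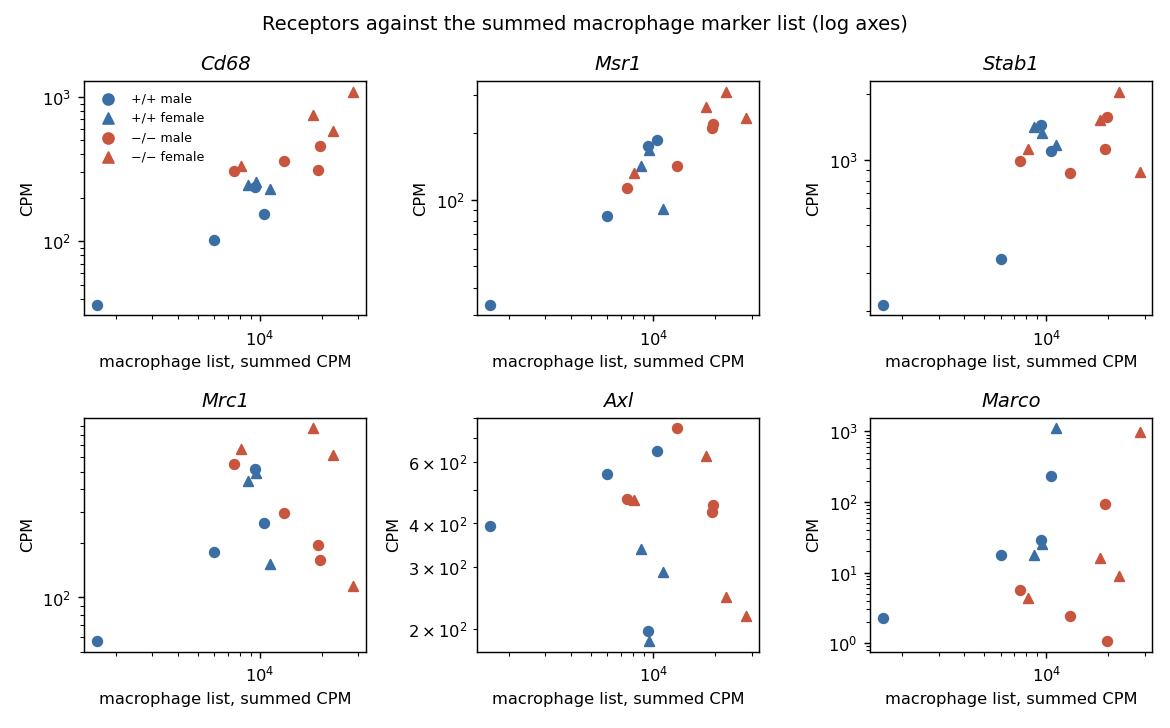
CPM of 6 receptors on the vertical axis against the summed CPM of the 20 pan-macrophage genes on the horizontal axis, 1 point per library, both axes on a log scale, with blue for TauT+/+, red for TauT-/-, circles for male and triangles for female labels. TauT+/+ male 2 lies farthest left in every panel, at a sum of 1617, and Cd68, Msr1, Stab1 and Mrc1 are lowest there, whereas Axl is not (393 CPM).

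The plot of receptors against the macrophage list shows which of them followed it. TauT+/+ male 2 had the lowest list sum and the lowest value of 6 of the 9 detected receptors, Cd68, Msr1, Mrc1, Cd163, Stab1 and Mertk. The model used the mean log2 CPM of the list, not the plotted sum. With it the log2 fold changes of Cd36, Msr1, Cd163, Stab1 and Mertk fell below 0, to between -0.21 (Stab1) and -0.06 (Msr1), and those of Cd68, Mrc1 and Axl stayed above 0. No receptor was called in that fit (0 of 9 by edgeR, 2 with an unadjusted p under 0.05, Cd68 and Marco). Of all 17204 genes it called 2, and 1980 had an unadjusted p under 0.05. Marco moved most, to -4.17 (edgeR, unadjusted p = 0.0152, adjusted p = 0.326). A list sum or mean and a receptor share the libraries and the scaling, so this is a description.

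The other 8 receptors that were tested did not pass the threshold, and in total 1 of 9 was called higher and 0 of 9 lower by edgeR. Of the 17204 genes 0.546% were called higher and 0.750% lower. At an unadjusted p under 0.05 the count was again 1 of 9 receptors, against 23.6% of all genes. DESeq2 also called Cd68 alone among the 8 receptors it gave a value, where 5.28% of genes given an adjusted p were called higher and 6.31% lower. The fold change was above 0 for 8 of the 9 receptors, with a median log2 fold change of 0.41, against 48.3% of all genes and a median of -0.02. The receptors share libraries and are not independent. Without the 3 libraries against their sex label edgeR called none (0 of 9, 2 with an unadjusted p under 0.05), and the log2 fold change was 1.54 for Cd36, 0.96 for Cd163, 0.80 for Msr1, 0.62 for Stab1, 0.41 for Mertk, 0.37 for Mrc1 and 0.31 for Axl. With the female-labelled library of each near-identical pair kept, Cd36 was at 1.00, Cd163 0.93, Msr1 0.85, Stab1 0.55, Mrc1 0.52, Mertk 0.37, Axl 0.28 and Marco -0.95. With the male-labelled library they were at 0.81, 0.60, 0.81, 0.45, 0.49, 0.30, 0.25 and -1.14. Neither fit called a receptor, and in each Cd68 and Msr1 alone had an unadjusted p under 0.05 by edgeR. So had 3271 of 14360 genes in the first fit and 3640 of 17552 in the second.

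**Figure D3:**
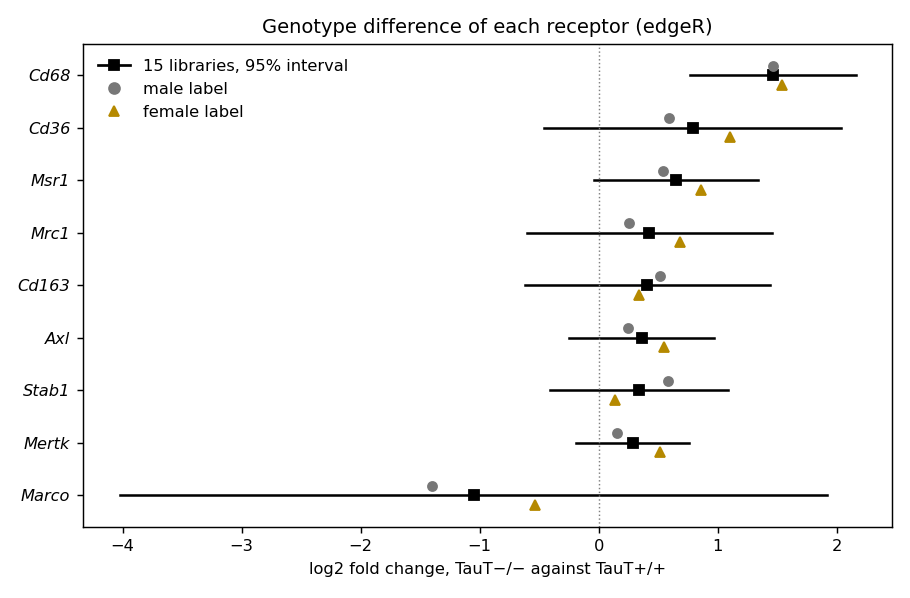
Log2 fold change of each receptor, TauT-/- against TauT+/+, by edgeR, with squares and 95% intervals for all 15 libraries, grey circles for the male label and yellow triangles for the female label. The interval of Cd68 alone lies wholly above 0, from 0.77 to 2.16, and that of Marco is the widest, from -4.02 to 1.92.

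Among the lipoprotein-binding scavenger receptors, Msr1 and Cd36 were next in size after Cd68. Msr1, which takes up acetylated and oxidized low-density lipoprotein, was at 175, 33.5, 187 and 84.6 CPM in TauT+/+ male libraries and at 169, 142 and 91.0 CPM in TauT+/+ female libraries. It was at 113, 142, 211 and 219.8 CPM in TauT-/- male libraries and at 132, 309, 264 and 236 CPM in TauT-/- female libraries. The genotypes overlapped, with 5 of 8 TauT-/- libraries above the highest TauT+/+ library. Its log2 fold change of 0.65 ± 0.32 (SE) with a 95% interval of -0.04 to 1.34 did not pass the threshold (edgeR, adjusted p = 0.235).

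Cd36 carries fatty acids into cells and binds oxidized lipoprotein and thrombospondin, and adipocytes make it as well as macrophages. It was at 82.5, 13.98, 88.4 and 9.37 CPM in TauT+/+ male libraries and at 80.6, 29.1 and 239.7 CPM in TauT+/+ female libraries. It was at 70.6, 38.9, 109 and 68.8 CPM in TauT-/- male libraries and at 89.5, 144, 160.2 and 576 CPM in TauT-/- female libraries. The lowest and the highest library differed 61.5-fold, and 1 of 8 TauT-/- libraries, female 4, was above every TauT+/+ library. Its log2 fold change was 0.79 ± 0.58 (SE, edgeR, adjusted p = 0.429), which was 0.40 without TauT-/- female 4 and 1.19 without TauT+/+ female 3. The 6 adipocyte markers tested all had a fold change below 0, with a median log2 fold change of -1.36 and 0 called by edgeR. Of them, 3 had an unadjusted p under 0.05, against 23.6% of all genes. DESeq2 called 4 of these markers lower, against 6.31% of genes given an adjusted p. Their summed CPM was 247 to 3636 in TauT+/+ and 164 to 1492 in TauT-/-, and their part in the Cd36 level was not tested.

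Marco had by far the widest range. This class A receptor binds bacteria and particles and is held by subsets of tissue macrophages. It was at 29.4, 2.29, 232 and 17.8 CPM in TauT+/+ male libraries and at 25.7, 17.5 and 1103 CPM in TauT+/+ female libraries. It was at 5.64, 2.42, 95.05 and 1.06 CPM in TauT-/- male libraries and at 4.40, 8.88, 16.05 and 986 CPM in TauT-/- female libraries. The highest library, TauT+/+ female 3, was 1043-fold above the lowest, TauT-/- male 4, and each genotype held 1 female library near 1000 CPM. The log2 fold change was -1.05 ± 1.39 (SE, edgeR, adjusted p = 0.678). It was 0.02 without TauT+/+ male 3, -0.03 without TauT+/+ female 3 and -2.99 without TauT-/- female 4. Without the 3 libraries against their sex label it was 0.49. The genes with the most similar pattern to Marco, named after their values had been seen, were Pecam1 (Spearman rho of 0.94 over 15 libraries), Cd40 (0.91) and Mmp9 (0.85). Pecam1 encodes CD31, which was a target of the depletion. The endothelial list, which holds Pecam1, summed to 2.76 to 20.04 CPM in TauT+/+ and 7.77 to 157 CPM in TauT-/-, mostly from Flt1 (mean of 4.81 and 39.0 CPM) and Kdr (2.90 and 16.1 CPM), which DESeq2 called higher in TauT-/- and edgeR did not. Pecam1 itself had a mean of 1.31 CPM in TauT+/+ and 1.16 CPM in TauT-/-, with a log2 fold change of -0.19 (edgeR, adjusted p = 0.935). The endothelial sum was 157 CPM in TauT-/- female 4, where Marco was at 986 CPM. It was 17.4 CPM in TauT+/+ female 3, with Marco at 1103 CPM, and 127 CPM in TauT-/- male 2, with Marco at 2.42 CPM. Adgre1 was highest in TauT-/- female 4 (3375 CPM) and TauT+/+ female 3 (1100 CPM). The part of endothelial cells or macrophages in the Marco level was not tested.

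**Figure D4:**
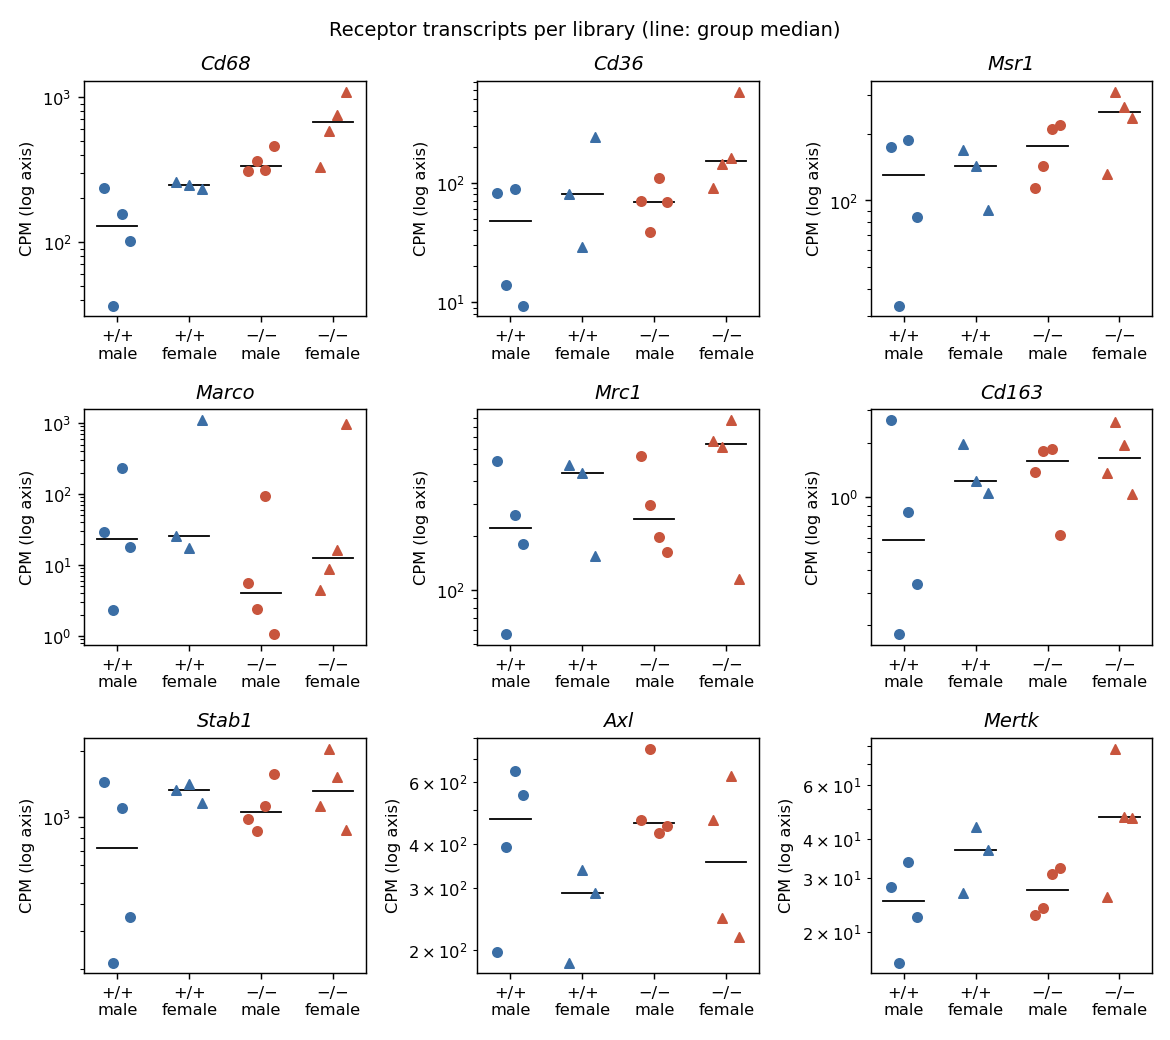
CPM of the 9 detected receptors on log axes for the 4 groups, 1 point per library and a line at the group median, blue for TauT+/+ and red for TauT-/-, circles for male and triangles for female labels. In the Cd68 panel all red points (309 or more) lie above all blue points (259 or less), and the Marco panel spans 2.29 to 1103 CPM in TauT+/+ and 1.06 to 986 CPM in TauT-/-.

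The receptors that mark resident-type macrophages did not pass the threshold. Mrc1, which binds mannose-rich glycoproteins and collagen fragments, was at 521, 56.9, 261 and 179 CPM in TauT+/+ male libraries and at 490.0, 445 and 154 CPM in TauT+/+ female libraries. It was at 552, 295, 196 and 161 CPM in TauT-/- male libraries and at 666, 617, 871 and 116 CPM in TauT-/- female libraries. The genotypes overlapped over most of their range, and TauT-/- female 4, which had the highest Cd68, Cd36 and Adgre1, was below every library except TauT+/+ male 2 in Mrc1. Between genotypes Mrc1 had a log2 fold change of 0.43 ± 0.48 (SE, edgeR, adjusted p = 0.620), which was 0.24 without TauT-/- male 1 and 0.75 without TauT+/+ male 1.

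Stab1, a receptor for modified lipoproteins and phosphatidylserine that is made by resident macrophages and sinusoidal endothelium, had the highest CPM of the receptors. It was at 1441, 214, 1095 and 349 CPM in TauT+/+ male libraries and at 1324, 1414 and 1162 CPM in TauT+/+ female libraries. It was at 982, 863, 1124 and 1572 CPM in TauT-/- male libraries and at 1121, 2056, 1523 and 874 CPM in TauT-/- female libraries. TauT+/+ male 2 and male 4 were low, and the other 13 libraries lay between 863 and 2056 CPM. The log2 fold change was 0.34 ± 0.35 (SE, edgeR, adjusted p = 0.578), and it was 0.17 without TauT+/+ male 2 and 0.56 without TauT+/+ male 1. Stab1 shares 113 of its 10288 exon bases with Nt5dc2 on the opposite strand. The counting was set by strand, but the library protocol does not say that strand was kept, so reads on those bases cannot be told apart.

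Cd163 clears hemoglobin-haptoglobin complexes and was the lowest of the detected receptors. It was at 2.65, 0.178, 0.830 and 0.336 CPM in TauT+/+ male libraries and at 1.95, 1.22 and 1.06 CPM in TauT+/+ female libraries. It was at 1.37, 1.80, 1.83 and 0.626 CPM in TauT-/- male libraries and at 1.36, 2.59, 1.94 and 1.04 CPM in TauT-/- female libraries. No TauT-/- library was above the highest TauT+/+ library, and the log2 fold change was 0.41 ± 0.48 (SE, edgeR, adjusted p = 0.637). It was 0.22 without TauT+/+ male 2 and 0.96 without TauT+/+ male 1. The resident macrophage list, without the receptors, had 8 genes tested, a median log2 fold change of 0.42 and 0 called by edgeR. Of these genes 5 had a fold change above 0 and 3 below. An unadjusted p under 0.05 was found for 3, against 23.6% of all genes. By edgeR log2 fold change, Vcam1 (-1.90) and Slc40a1 (-0.92) were lower and Folr2 (0.64) was higher. DESeq2 called 1 lower, Vcam1, against 6.31% of genes given an adjusted p.

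Of the receptors for dying cells, Timd4 was not detected. This phosphatidylserine receptor of resident macrophages had 0 counts in all 15 libraries, 0 of 814060486 counts in total. A count of 0 allows up to 0.0295 CPM in the deepest library and 0.235 CPM in the shallowest, by a limit of 3 counts per library that covers counting error only.

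Axl and Mertk are tyrosine kinases of the TAM family, and both are activated by Gas6. Axl was at 197, 393, 646 and 553 CPM in TauT+/+ male libraries and at 184, 339 and 291 CPM in TauT+/+ female libraries. It was at 469.8, 748, 432 and 451 CPM in TauT-/- male libraries and at 467, 247, 624 and 217 CPM in TauT-/- female libraries. The genotypes overlapped, and the range over libraries was the narrowest of the receptors, 4.06-fold. For Axl the log2 fold change was 0.36 ± 0.28 (SE, edgeR, adjusted p = 0.459), and it was 0.22 without TauT-/- female 3. Axl was not among the receptors lowest in TauT+/+ male 2, the library with the least macrophage signal, where it was at 393 CPM.

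Mertk, the TAM receptor best known from macrophages, was at 28.1, 15.9, 33.8 and 22.4 CPM in TauT+/+ male libraries and at 26.9, 43.9 and 36.8 CPM in TauT+/+ female libraries. It was at 22.8, 23.9, 30.8 and 32.2 CPM in TauT-/- male libraries and at 25.98, 78.6, 47.3 and 47.0 CPM in TauT-/- female libraries. In TauT-/-, 3 of 4 female libraries were above every TauT+/+ library and no male library was. For Mertk the log2 fold change was 0.29 ± 0.22 (SE, edgeR, adjusted p = 0.451), and it was 0.18 without TauT-/- female 2.

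The balance of the TAM receptors was compared as the log2 ratio of Mertk to Axl, with 0.5 CPM added to each. In TauT+/+ it averaged -3.55 ± 0.87 (SD, n = 7), against -3.57 ± 1.10 (SD, n = 8) in TauT-/-, a difference of -0.02 that was smaller than the spread between libraries (two-sided exact permutation test within the sex labels, p = 0.970). Over libraries the ratio ran from -4.94 in TauT-/- male 2 to -1.65 in TauT-/- female 2. The third TAM receptor, Tyro3, was at 5.46 to 18.2 CPM in TauT+/+ and 4.12 to 19.9 CPM in TauT-/-.

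Levels of different receptors were compared per length, as CPM per kilobase of the canonical transcript. The median over 15 libraries was 258 for Cd68, 140.5 for Stab1, 118 for Msr1, 92.9 for Axl, 53.8 for Mrc1, 23.5 for Cd36, 9.10 for Marco, 6.62 for Mertk and 0.309 for Cd163. Cd68 was above Stab1 in 14 of 15 libraries, Stab1 above Msr1 in 12, Mrc1 above Cd36 in 13, and Mertk above Cd163 in all 15. Neighbours that exchanged places often were Msr1 and Axl, Axl and Mrc1, and Cd36 and Marco, where the first was the higher in 9 of 15 libraries each, and Marco and Mertk, where Marco was the higher in 7. Some neighbours changed order between the genotype medians, which were taken for each receptor separately, and this was not tested. Stab1 was still above Msr1 in 12 of all 15 libraries. Msr1 had a median of 151 and Stab1 of 140.3 in TauT-/-, against 99.97 and 145 in TauT+/+, and Marco had 3.77 and Mertk 6.77 in TauT-/-, against 13.3 and 6.03. With the length of all exons joined, Msr1 moved from the third place to the fifth, because its joined exons of 6344 bases are longer than its canonical transcript of 1424 bases. Cd36 and Marco exchanged places with that length.

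**Figure D5:**
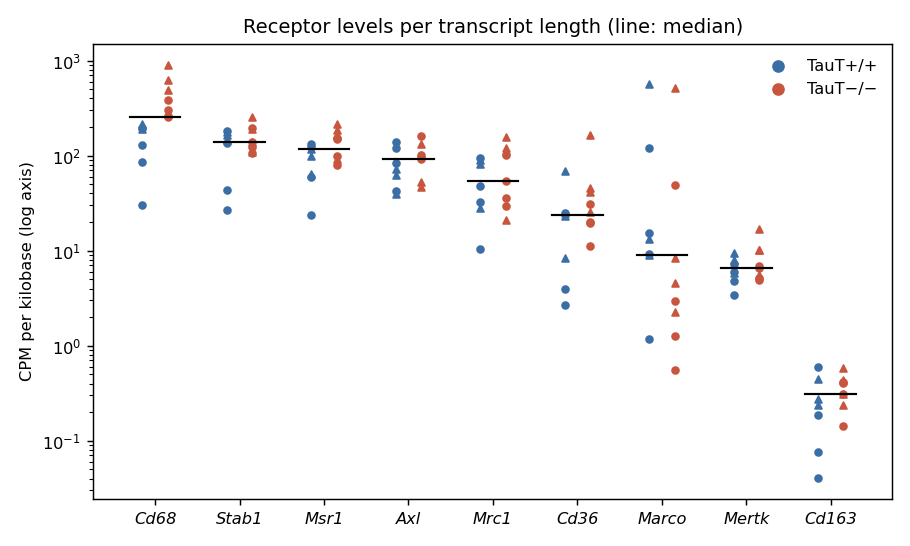
CPM per kilobase of canonical transcript (log axis) of the 9 detected receptors in each library, blue for TauT+/+ and red for TauT-/-, with a line at the median of 15 libraries. Cd68 is highest with a median of 258 and Cd163 lowest with 0.309, and Marco spreads over 0.549 to 573.

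The plot of levels per length shows Cd68 at the top in most libraries, Cd163 at the bottom in all, and overlap between them. Genes whose log2 CPM followed a receptor over the 15 libraries were found by Spearman's rho for the 4 receptors of highest mean CPM. Cd68 was followed by Grn (rho of 0.99), Dnase2a (0.99) and Cyba (0.98), which encode a lysosomal glycoprotein, the lysosomal DNase and a subunit of the phagocyte NADPH oxidase. Mrc1 was followed by Afap1l1 (0.92), Cd93 and Gm42793 (0.875 each), and Stab1 by Inpp4b (0.87), Slc2a9 and Slc9a9 (0.86 each). Axl was followed by Plec (0.95), Zzef1 (0.91) and Fmnl3 (0.90), the first a cytoskeletal linker. The libraries share their scaling and depth by sex label, and these values are descriptions.

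Other genes of uptake were read from lists, and those called by DESeq2 alone are named after their values had been seen. For comparison with each list below, 23.6% of all genes had an unadjusted p under 0.05 by edgeR. Of all genes edgeR called 0.546% higher and 0.750% lower, and DESeq2 called 5.28% higher and 6.31% lower of those given an adjusted p. Of the 10 bridging molecules and opsonins, 6 had a fold change above 0, the median log2 fold change was 0.31 and edgeR called 0 (6 with an unadjusted p under 0.05). DESeq2 called the complement genes C1qa (log2 fold change of 0.90) and C1qb (0.88) higher and Gas6 (-1.40) lower. C1qa, C1qb and C1qc are also on the pan-macrophage list, so the C1qa and C1qb calls are counted there as well. Gas6, the ligand of Axl and Mertk, was at 495 to 4949 CPM in TauT+/+ and 309 to 1642 CPM in TauT-/- (edgeR, adjusted p = 0.105). Pros1 and Mfge8, which also bridge to phosphatidylserine, had log2 fold changes of -0.49 and -0.45 by edgeR, both short of the threshold (adjusted p of 0.477 and 0.116).

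Of 21 further receptors for dying cells or scavenged ligands, 20 were tested, 12 were above 0 and the median log2 fold change was 0.08. edgeR called 1 lower, Ager, the receptor for advanced glycation end products, whose mean was 7.82 ± 3.05 CPM (SD, n = 7) for TauT+/+ against 2.76 ± 0.93 CPM (n = 8) for TauT-/-. Its log2 fold change was -1.52 ± 0.34 (SE, edgeR, adjusted p = 0.0439), and the call was kept in 2 of 15 fits that each left out 1 library, those without TauT+/+ male 3 or TauT-/- male 2 (adjusted p of 0.00720 to 0.107 over the 15). DESeq2 also called Ager, with Havcr2 (1.13) and Cd300lf (1.47), both phosphatidylserine-binding receptors, higher.

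Engulfment signalling had 11 genes tested, 7 above 0, a median log2 fold change of 0.24 and 0 called by edgeR (7 with an unadjusted p under 0.05, against 23.6% of all genes). DESeq2 called 5 higher: the GTPases Rac1 (0.26) and Rhog (0.65), the Rac activators Dock2 (1.04) and Vav1 (1.06), and Elmo1 (0.62), the partner of Dock proteins. Of 7 genes that restrain uptake, 4 were above 0, the median was 0.51 and edgeR called 0 (3 with an unadjusted p under 0.05), whereas DESeq2 called the inhibitory receptors Sirpa (0.98) and Pirb (1.21) higher. The 2 proteases known to shed TAM receptors, Adam10 and Adam17, had a median of 0.08, and neither edgeR nor DESeq2 called them (0 with an unadjusted p under 0.05).

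Of the 15 genes that handle cargo after uptake, 11 were above 0, the median log2 fold change was 0.58 and edgeR called 1 higher. This was Dnase2a, which degrades the DNA of engulfed cells, with a mean of 21.2 ± 3.85 CPM (SD, n = 7) for TauT+/+ against 46.8 ± 15.0 CPM (n = 8) for TauT-/-. Its log2 fold change was 1.09 ± 0.15 (SE, edgeR, adjusted p = 0.0117), and it was called in all 15 fits that each left out 1 library (adjusted p of 0.00599 to 0.0439). It was not called without the 3 libraries against their sex label (edgeR, log2 fold change of 1.23, adjusted p = 0.0700), in the libraries of either sex label alone, or with the macrophage list in the model (0.81, adjusted p = 0.112). DESeq2 also called the cholesterol exporter Abca1 (1.01), the lysosomal cholesterol genes Npc1 (0.91) and Lipa (0.64) higher, and the fatty acid receptor Pparg (-1.08) lower.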

How the data were processed

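Bulk RNA-sequencing was analysed from 15 libraries of cultured mouse MSCs. Per the labels and the study's methods, the authors made full-length cDNA from 1 ng of RNA (SMART-Seq mRNA LP), trimmed reads with fastp 0.23.1, mapped them to GRCm39 with STAR 2.7.9a and counted them on genes by strand with featureCounts of Subread 2.0.1. The values the authors deposited are raw counts per gene, with no normalization. Whether each library came from a separate animal is not given in the sources used here for the near-identical pairs, so p-values measure the spread between these libraries.

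The main test was that of edgeR 4.0.16 in R 4.3.3 (TMM, filterByExpr, quasi-likelihood, sex label plus genotype as terms, Benjamini-Hochberg adjustment over 17204 genes, threshold 0.05). Contrasts within a sex label and their difference used 1 term per group. DESeq2 1.42.0 on the same model (18045 genes given an adjusted p) and limma 3.58.1 voom were alternatives, with other scalings and filters, a macrophage covariate, a replicate block, and libraries left out. CPM uses TMM-scaled totals. The procedure was tested on simulated data with independent libraries, no sex effect and no near-identical pairs, so that test does not cover those features. The log ratio used SciPy 1.17.1. Positions come from GENCODE M39 on GRCm39, and promoters from RefSeq on GRCm38.p6.

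The receptors and lists were chosen with earlier results of these data known. All 10 receptors are named, with up to 4 genes a list that edgeR called, 6 defining markers, and the 3 genes most like each of 4 receptors. The genes most like Marco, and those DESeq2 alone called, were named after their values had been seen. So were the resident macrophage and stromal genes named for an unadjusted p under 0.05. Totals of 12761107 to 101575071 counts put a limit of 3 counts at 0.0295 to 0.235 CPM.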

Additional observations from a re-analysis of the deposited data

Results flagged for a closer look

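In 2 of the 30 groups of 4 libraries tested (10 measures in 3 groups), 1 library stood apart by Dixon's test, where chance flags about 1 in 20, or 1.5 here. For log2(CPM + 0.5) of Mrc1, TauT-/- female 4 was lowest, with a gap of 0.82916 of the group's range, just past the critical value. For log2(CPM + 0.5) of Axl, TauT-/- male 2 was highest, with a gap of 0.846 of the range.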

How the results depend on the processing

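Cd68 stayed higher in TauT-/- in all 29 alternatives, and 8 kept the call. The log2 fold change was 1.48 without a filter on low counts (edgeR, adjusted p = 0.0549), 1.54 without a sex term (0.0502), 0.73 with the macrophage list as a covariate, 1.70 and 1.60 when each near-identical pair was reduced to its female- or male-labelled library, 1.75 after removing the 3 libraries against their sex label, and 1.47 and 1.52 in the male or female libraries alone (0.631 and 0.268). The number of receptors called was 0 in these, and dropping each library in turn gave 0 to 1 receptors called and 1.31 to 1.69 for Cd68. With the replicate block the log2 fold change was 1.43 (adjusted p = 0.0678), with 0 receptors called. Same-numbered libraries correlated at 0.19 to 0.62 in males and -0.04 to 0.28 in females, and 11 of 14 correlated best with their own number, a hint of pairing. The numbers were not taken as pairs because 2 female pairs were under 0.1 and the labels do not tie them. Over all genes the block moved the calls from 94 higher and 129 lower to 82 and 177. DESeq2 called 952 higher and 1139 lower, voom 611 and 708, and without the 3 libraries edgeR called 0 of either, with 3115 genes at an unadjusted p under 0.05.

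With the macrophage covariate Cd36 became -0.087, Msr1 -0.062, Cd163 -0.10, Stab1 -0.21 and Mertk -0.12. Marco turned to 0.49 without the 3 libraries, and ranged from -2.99 to 0.016 (without TauT+/+ male 3) when 1 library was left out. The Mertk to Axl difference turned to 0.22 and 0.20 with the female- or male-labelled library of each pair, and ranged from -0.29 to 0.18 when 1 library was left out. Marco was -4.17 with the covariate. The cause of these changes was not tested. The median of the receptors kept its direction except with the covariate, at -0.09. Depth limits what a count of 0 for Timd4 allows, up to 0.235 CPM in the shallowest library.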
